A study of Mus musculus with 5 samples.

Results

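The genes described here mostly encode the thioredoxin system, haem oxygenases, quinone reductases, and enzymes that remove reactive oxygen or make, recycle and use glutathione. They were chosen by symbol alone: superoxide dismutases (Sod1 to Sod3), catalase (Cat), peroxiredoxins (Prdx), glutathione peroxidases (Gpx), glutaredoxins (Glrx), every symbol starting with Txn, glutathione transferases (Gst), haem oxygenases (Hmox), quinone reductases (Nqo), and Gclc, Gclm, Gss and Gsr. On the array 57 symbols met this rule, and 56 of them had a probe measured at all times, out of 8637 genes measured at all times. The remaining symbol, Gstt1, lacked a value at 0.5 h on its only probe. Sod1, Prdx5 and Prdx6 were not analysed here. Thioredoxin-like genes such as Txnl4a entered by name, whatever their function.

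Superoxide made by activated phagocytes and by mitochondria is converted by superoxide dismutases to hydrogen peroxide, which catalase, peroxiredoxins and glutathione peroxidases reduce to water. Peroxiredoxins are recharged by thioredoxin and glutathione peroxidases by glutathione, and thioredoxin reductase and glutathione reductase restore both carriers at the expense of NADPH. In macrophages these enzymes act beside an NADPH oxidase that produces superoxide on purpose, and many of them are known targets of the transcription factors NRF2 and NF-kappaB.

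Bone marrow cells of C3H/ARC mice were grown in culture into macrophages with human colony stimulating factor 1 (CSF-1). The cells were untreated (0 h) or had been given lipopolysaccharide (LPS) of S. minnesota, an endotoxin from the outer membrane of a bacterium, at 10 µg/ml for 0.5, 2, 7 or 21 h. All 5 groups share the strain, the culture and the growth factor, and the sources used here do not give the number of mice behind each RNA. Each RNA was hybridised on a 2-colour cDNA array against RNA of whole C57BL6/J embryos of day 17.5, with 1 array per time. No replicate exists, so no p-value is given and no difference below was tested against spread between animals or cultures. Words such as higher and lower describe single arrays.

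Values are log2 ratios of macrophage to embryo after subtraction of the array median, called levels, and log2 changes of those levels from the 0 h array. A level is therefore relative to embryo RNA and gives no abundance of one gene against another. The deposited values were read as log10 and the direction as macrophage over embryo; the labels state neither. On the 0 h array 7 of 10 measured macrophage markers lay at least 2-fold above embryo and 17 of 25 embryo markers at least 2-fold below, which makes the direction likely. Cd68, Tyrobp and Fcgr2b were the macrophage markers not above embryo at 0 h. In RNA of a whole culture, fewer cells of a type and less RNA per cell cannot be told apart. The SD given for genes with several probes is the spread over the probes of the gene on the same arrays. It is technical. Of the 207 runs of 96 consecutive probe numbers, 94 had early values far above the untreated array on at least 10% of their probes, by 2-fold or more on the array of 0.5 h or of 2 h. Those runs hold 45.3% of all probes and 48 of the 117 probes behind the genes described here. The number of probes in runs is therefore stated for the genes of the set past 2-fold and for others whose early values are given one by one.

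Most antioxidant genes lay within 2-fold of their 0 h level at every time, as did most genes on the arrays. Sod2, the mitochondrial superoxide dismutase, was 4.57-fold higher at 7 h and 5.48-fold at 21 h. Hmox1, the inducible haem oxygenase, was 4.74-fold higher at 21 h, Prdx1, a cytosolic peroxiredoxin, 2.97-fold and Glrx, the cytosolic glutaredoxin, 2.65-fold. Gsr, glutathione reductase, was 2.22-fold higher at 7 h. The enzymes that build glutathione, catalase, the other peroxiredoxins and most glutathione transferases stayed within 2-fold at every time. In all, 10 of the 56 genes reached 2-fold in either direction at some time and 46 did not, beside 20.5% of all genes that reached it.

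At 0.5 h, 1 of the 56 genes was at least 2-fold higher and 1 lower, where 5.95% of all genes were higher and 1.01% lower. At 2 h the counts were 4 and 1, beside 12.4% and 1.1% of all genes. Quantile normalization of the arrays turns this early balance, giving 0 higher and 3 lower at 0.5 h and 1 higher and 5 lower at 2 h. All genes moved the same way, from 514 higher and 87 lower to 240 and 298 at 0.5 h. At 2 h they went from 1071 and 95 to 430 and 395. At 7 h, 3 genes were higher and 1 lower, where 4.08% of all genes were higher and 3.16% lower. Without centring of the arrays, 7 h gave 1 and 1 among these genes, and 220 higher against 510 lower among all genes in place of 352 and 273.

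At 21 h, 5 of the 56 genes stood 2-fold or more above the untreated array and 0 below it, a share of 8.93% beside 3.05% of all genes, and 1.45% of all genes were lower. These shares are near the background at 7 h (5.36% higher beside 4.08%) and above it at 21 h, with 5 genes behind the latter. Without centring the 21 h counts were 4 higher and 1 lower. The median change was 0.09, -0.02, -0.01 and 0.12 at 0.5, 2, 7 and 21 h, and that of all genes 0.08, 0.07, -0.0003 and 0.02. Among the 42 genes with a probe outside the runs of high early values, 0, 2, 3 and 2 were at least 2-fold higher at the 4 times and 0 were lower at each. Of all genes outside the runs 1.28%, 4.22%, 4.52% and 2.55% were higher and 0.984%, 1.55%, 2.87% and 1.08% lower.

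**Figure D1:**
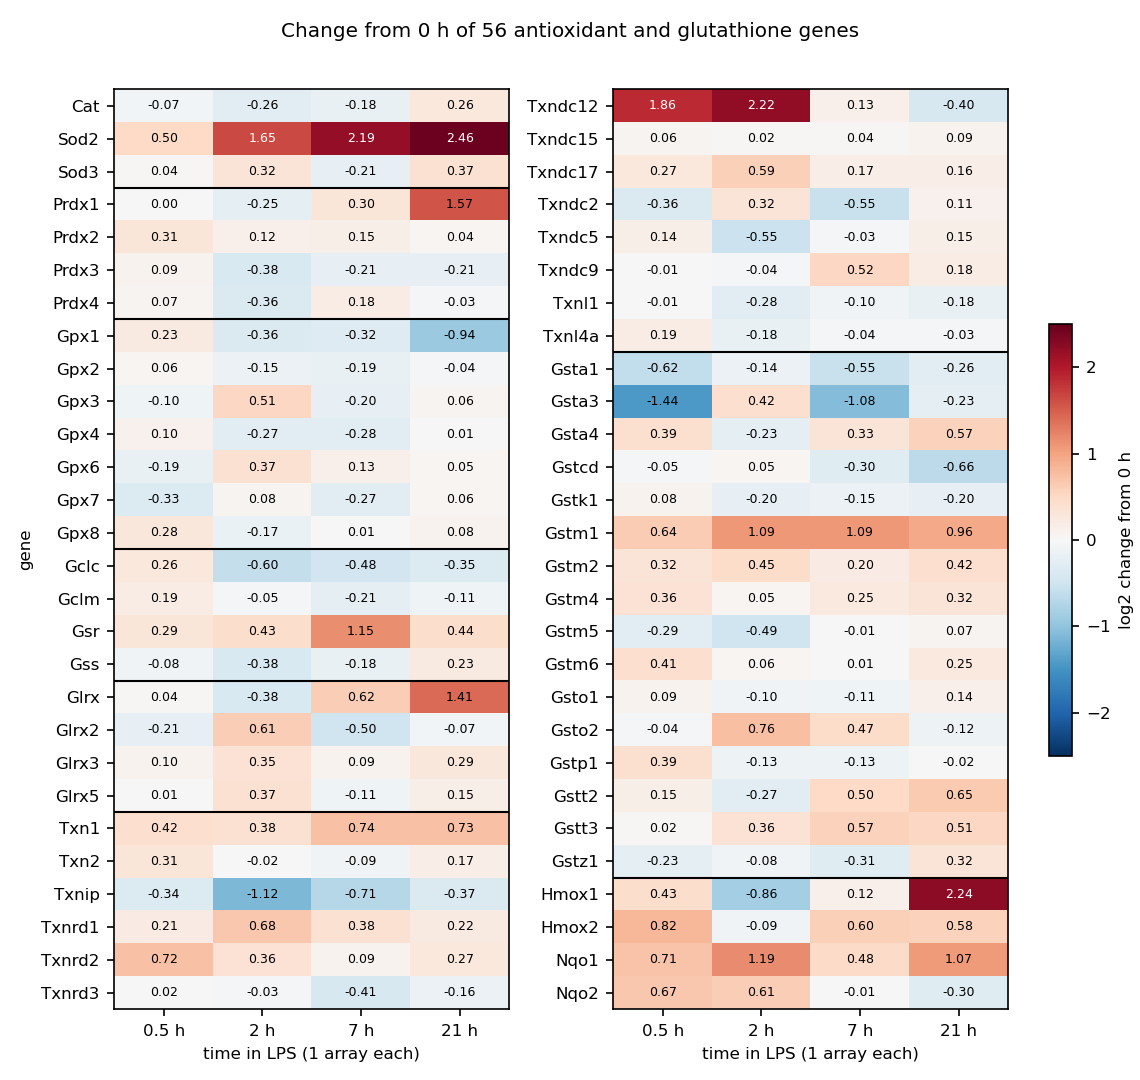
Log2 change from the 0 h array of each of the 56 genes (rows, with lines between families) at 0.5, 2, 7 and 21 h in LPS (columns, 1 array each), as colour and number. The strong colours are limited to a few rows, with Sod2 at 1.65, 2.19 and 2.46 from 2 h on, Txndc12 at 1.86 and 2.22 early, and Hmox1, Prdx1 and Glrx at 2.24, 1.57 and 1.41 at 21 h.

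Most of the set lay close to its untreated level at each time. The change was within 0.5 on the log2 scale for 48, 42, 43 and 43 of the 56 genes at the 4 times, beside 77.9%, 66.7%, 72.1% and 79% of all genes. Positive changes numbered 40, 27, 27 and 37, or 71.4%, 48.2%, 48.2% and 66.1%, beside 59.2%, 56%, 49.9% and 52.5% of all genes. Of the 28 genes with several probes, all probes had the same sign in 14, 9, 15 and 11.

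**Figure D2:**
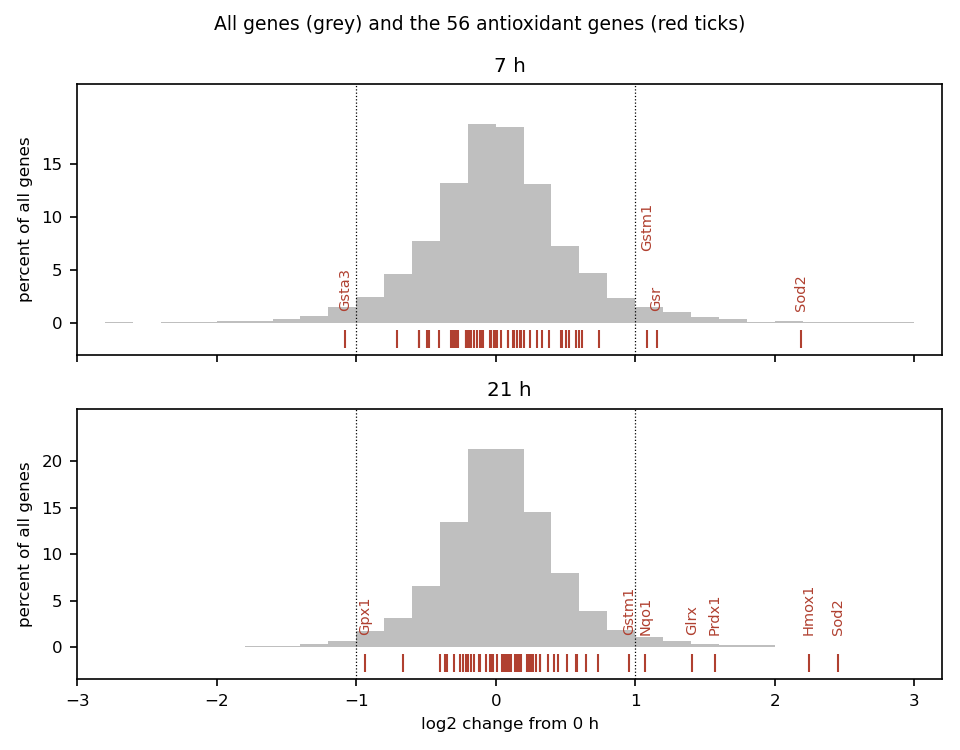
Percent of all 8637 genes per interval of log2 change from 0 h (grey bars) with the 56 antioxidant genes as red ticks, at 7 h (top) and 21 h (bottom); dotted lines mark 2-fold. The ticks lie mostly in the centre of the grey bars, and Sod2 at both times and Hmox1 at 21 h stand beyond 2 on the log2 scale; 15 genes at 7 h and 11 at 21 h lie outside the axis.

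Before LPS, 5 of the 56 genes were at least 2-fold above embryo on the 0 h array, beside 5.4% of all genes, and 2 were at least 2-fold below, beside 7.06%. Those above were Hmox1 (level 2.09), Glrx (1.23), Prdx1 (1.23), the thioredoxin-like Txndc12 (1.13) and the cytosolic glutathione peroxidase Gpx1 (1.07). Those below were the glutathione transferases Gstm1 (-1.02) and Gstm5 (-1.01). The median level of the set was -0.05 at 0 h and between -0.08 and 0.02 later, and that of all genes was -0.03 at 0 h.

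Sod2 removes superoxide in the mitochondrial matrix. Its level was 0.12 on the 0 h array, 0.62 at 0.5 h, 1.77 at 2 h, 2.31 at 7 h and 2.58 at 21 h. The untreated array was the lowest and each later array was above the one before it. Relative to 0 h this is a change of 0.50 (SD over 4 probes 0.59), 1.65 (1.11), 2.19 (1.87) and 2.46 (2.02). A single probe stood apart and read -0.56 at 21 h where the other probes read 3.79, 3.28 and 3.30. Of the 4 probes 3 lie in runs of high early values. The probe outside them read 1.64, 2.74 and 3.28 at 2, 7 and 21 h, so the late change is as large on a probe outside the runs.

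Sod3 and catalase differed little. Sod3, the secreted superoxide dismutase, had 1 probe, in a run, and changes of 0.04, 0.32, -0.21 and 0.37. Catalase, the peroxisomal enzyme that splits hydrogen peroxide, had levels of -0.77, -0.85, -1.03, -0.96 and -0.51 in order of time, with 1 of its 5 probes in a run. All 5 arrays were below embryo, with the highest at 21 h. The change at 21 h was 0.26 (SD over 5 probes 0.10), and all 5 probes were above 0 h at that time.

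Prdx1, which reduces peroxides with thioredoxin as donor, stood apart from the other peroxiredoxins late in the course. It had 9 probes, 6 of them in runs, and levels of 1.23, 1.23, 0.98, 1.53 and 2.80 at 0, 0.5, 2, 7 and 21 h. The first 4 arrays lay within 0.6 of each other and the 21 h array was well above them. The changes were 0.00 (SD over probes 0.31), -0.25 (0.42), 0.30 (0.56) and 1.57 (0.73). At 21 h 8 of the 9 probes read between 1.54 and 2.19, and the remaining probe read -0.30. The mean of the 3 probes outside the runs was 1.26 at 21 h.

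The other peroxiredoxins had no such late value. Prdx2, the cytosolic enzyme abundant in red cells, had levels of -0.92, -0.62, -0.81, -0.77 and -0.88 on 2 probes in runs, below embryo on every array. Prdx3, the mitochondrial enzyme, had levels of -0.34, -0.25, -0.73, -0.55 and -0.56 on 1 probe outside the runs. Prdx4, which works in the endoplasmic reticulum, had levels of 0.31, 0.38, -0.05, 0.50 and 0.29, with 1 of its 2 probes in a run. Their changes at 21 h were 0.04, -0.21 and -0.03, beside 1.57 for Prdx1.

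**Figure D3:**
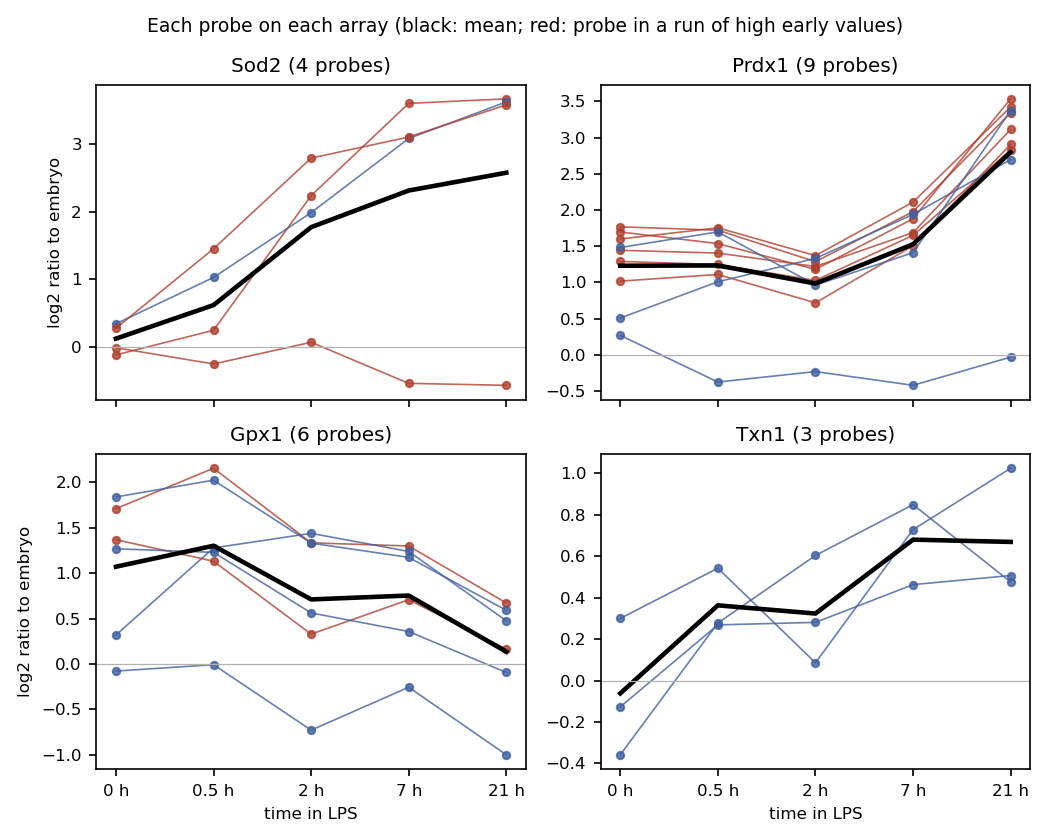
Level (log2 ratio to embryo, array median at 0) of each probe of Sod2, Prdx1, Gpx1 and Txn1 at 0, 0.5, 2, 7 and 21 h in LPS, with the mean in black and probes in runs of high early values in red. For Sod2 and Prdx1 a single probe stays near its 0 h level (changes of -0.56 and -0.30 at 21 h) while the others end far above 0 h; for Gpx1 5 of 6 probes end below 0 h, and for Txn1 all 3 end above it.

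Of the glutathione peroxidases, which reduce peroxides with glutathione, Gpx1 was the one with a large change, and it was downward. Its level was 1.07 at 0 h, 1.30 at 0.5 h, 0.71 at 2 h, 0.75 at 7 h and 0.13 at 21 h, with 2 of its 6 probes in runs. The 21 h array was the lowest. The change there was -0.94 (SD over 6 probes 0.56), short of 2-fold. It was below 0 on 5 of the 6 probes and at least 2-fold lower on 4 of them, and the remaining probe read 0.16. Without centring of the arrays the value was -1.08 and with quantile normalization -1.62, both past 2-fold.

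Gpx4, which reduces lipid peroxides in membranes, had levels of 0.23, 0.33, -0.04, -0.05 and 0.24, with 2 of its 4 probes in runs. The arrays at 2 h and 7 h were the lowest, and the change at 7 h was -0.28 (SD over 4 probes 0.08). At 21 h it was 0.01. Gpx2, Gpx3, Gpx6, Gpx7 and Gpx8 lay between -0.33 and 0.51 at every time. None of the 7 glutathione peroxidases reached 2-fold at any time, and their median at 21 h was 0.05.

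The genes for glutathione synthesis stayed within 0.6 of their untreated level on the log2 scale at every time, while the gene for its reduction passed 2-fold at 7 h. Gclc, the catalytic subunit of glutamate-cysteine ligase, which sets the rate of synthesis, had levels of 0.01, 0.27, -0.59, -0.47 and -0.34 on 1 probe outside the runs. The arrays from 2 h on were below both earlier ones, with changes of -0.60, -0.48 and -0.35. Gclm, the modifier subunit, had levels of 0.19, 0.38, 0.14, -0.02 and 0.08 on 3 probes outside the runs and changes between -0.21 and 0.19. Gss, glutathione synthetase, which completes the tripeptide, had levels of 0.01, -0.08, -0.38, -0.17 and 0.24 on 1 probe outside the runs, lowest at 2 h and highest at 21 h.

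Gsr returns oxidised glutathione to its reduced form with NADPH. Its level was 0.62 at 0 h, 0.91 at 0.5 h, 1.05 at 2 h, 1.77 at 7 h and 1.06 at 21 h on a single probe outside the runs. The 7 h array was the highest and the 0 h array the lowest. The change was 1.15 at 7 h and 0.44 at 21 h. Without centring the 7 h value was 0.93, and against the 0.5 h array it was 0.86, both short of 2-fold.

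Glutaredoxins remove glutathione from protein thiols. Glrx had 1 probe, in a run, with levels of 1.23, 1.27, 0.85, 1.85 and 2.64. The arrays at 7 h and 21 h were above all earlier ones. The changes were 0.04, -0.38, 0.62 and 1.41. The part of the run in these values was not tested. Glrx2, the mitochondrial form, Glrx3 and Glrx5, both linked to iron-sulfur proteins, lay between -0.50 and 0.61 at all times and between -0.07 and 0.29 at 21 h.

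In the thioredoxin system Txn1, the cytosolic thioredoxin, was moderately higher at each time on 3 probes outside the runs. Its levels were -0.06, 0.36, 0.32, 0.68 and 0.67. All LPS arrays were above the untreated one. The change was 0.42 (SD over probes 0.20), 0.38 (0.59), 0.74 (0.41) and 0.73 (0.10), and at 21 h, 1.66-fold, the 3 probes read 0.63, 0.72 and 0.83. Txnrd1, the cytosolic thioredoxin reductase, had levels of -0.03, 0.17, 0.65, 0.35 and 0.19 on 1 probe outside the runs, highest at 2 h with a change of 0.68. The mitochondrial pair differed less late, with 0.17 for Txn2 and 0.27 for Txnrd2 at 21 h, and Txnrd3 had -0.16.

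Txnip, a protein that binds and inhibits thioredoxin and limits glucose uptake, went the other way. Its levels were 0.75, 0.40, -0.38, 0.04 and 0.38 on 2 probes, 1 of them in a run. The untreated array was the highest and the 2 h array the lowest. The changes were -0.34 (SD over probes 0.16), -1.12 (0.20), -0.71 (0.26) and -0.37 (0.22), and both probes were below 0 h at all 4 times. At 2 h Txnip was 2.18-fold lower, and the probe outside the runs read -0.98.

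Among the 8 thioredoxin-like genes Txndc12, a thioredoxin-domain protein of the endoplasmic reticulum, was the only one to reach 2-fold. Its levels were 1.13, 2.99, 3.35, 1.26 and 0.73 on a single probe in a run. The arrays at 0.5 h and 2 h were high and those at 0, 7 and 21 h low. The folds of 3.63 and 4.67 were confined to the times by which the runs were marked, and quantile normalization leaves changes of 0.68 and 0.31. The part of the run in these values was not tested. The other thioredoxin-like genes lay between -0.55 and 0.59 at all times, with Txndc9 at 0.52 (SD over 4 probes 0.10) at 7 h.

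Glutathione transferases join glutathione to electrophiles, and 16 of them were measured. Their median level was -0.50 at 0 h, below that of all genes, and their median change was 0.08, -0.02, -0.00 and 0.19 at the 4 times. Gstm1 had 1 probe, outside the runs, with levels of -1.02, -0.37, 0.07, 0.07 and -0.06. The untreated array was the lowest, and the arrays from 2 h on were alike. The changes were 0.64, 1.09, 1.09 and 0.96, or 1.56-, 2.13-, 2.12- and 1.94-fold. Measured from the 0.5 h array they were 0.45 at 2 h and 0.44 at 7 h, so the 2-fold counts of this gene depend on the 0 h array.

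Gsta3 had levels of -0.80, -2.24, -0.38, -1.88 and -1.04 on a single probe in a run. The values at 0.5 h and 7 h were low and the others were higher, with changes of -1.44 and -1.08, so the arrays did not follow the order of time. From the 0.5 h array the 7 h change was 0.36, of the opposite sign. Gsta4, which acts on lipid aldehydes, had levels of -0.50, -0.11, -0.73, -0.17 and 0.07 outside the runs, with 0.57 (SD over 2 probes 0.49) at 21 h. Gstp1, a transferase of many tissues, had levels of -0.15, 0.24, -0.28, -0.28 and -0.16 on 1 probe outside the runs.

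The remaining 12 transferases lay between -0.66 and 0.76 at all times. At 21 h the lowest was Gstcd at -0.66 and the highest Gstt2 at 0.65. The related genes Gstm2, Gstm4, Gstm5 and Gstm6 had 0.42, 0.32, 0.07 and 0.25 at 21 h, beside 0.96 for Gstm1. Shared sequence between cDNA probes of such close relatives was not examined.

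Hmox1 breaks down haem to biliverdin, iron and carbon monoxide. Its level was 2.09 at 0 h, 2.52 at 0.5 h, 1.23 at 2 h, 2.21 at 7 h and 4.33 at 21 h, on a single probe in a run. It was above embryo on all 5 arrays, lowest at 2 h and highest at 21 h. The changes were 0.43, -0.86, 0.12 and 2.24. The part of the run in these values was not tested. Hmox2, the constitutive form, had levels of 0.35, 1.18, 0.26, 0.95 and 0.93 on 2 probes outside the runs, with 0.58 (SD over probes 0.34) at 21 h.

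Nqo1, which reduces quinones with 2 electrons and is a classical NRF2 target, had levels of -0.55, 0.15, 0.63, -0.08 and 0.52 on 2 probes in runs. All LPS arrays were above the untreated one, without order of time. The changes were 0.71 (SD over probes 0.89), 1.19 (1.01), 0.48 (0.08) and 1.07 (0.43). Another probe lacked a value at 0.5 h and was left out. It read 0.87, -1.43 and -0.89 at 2, 7 and 21 h, against the sign of the others at the late times, and the mean at 21 h over the 3 probes was 0.42. Nqo2, a related quinone reductase, had changes of 0.67, 0.61, -0.01 and -0.30 on 3 probes, 2 of them in runs. Of these 3, a single probe in a run read 1.82 and 1.66 at 0.5 h and 2 h, and the probe outside the runs read 0.06 and 0.41. A further Nqo2 probe, also in a run, lacked a value at 2 h and was left out. It read 7.44, -0.25 and -0.69 at 0.5, 7 and 21 h.

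**Figure D4:**
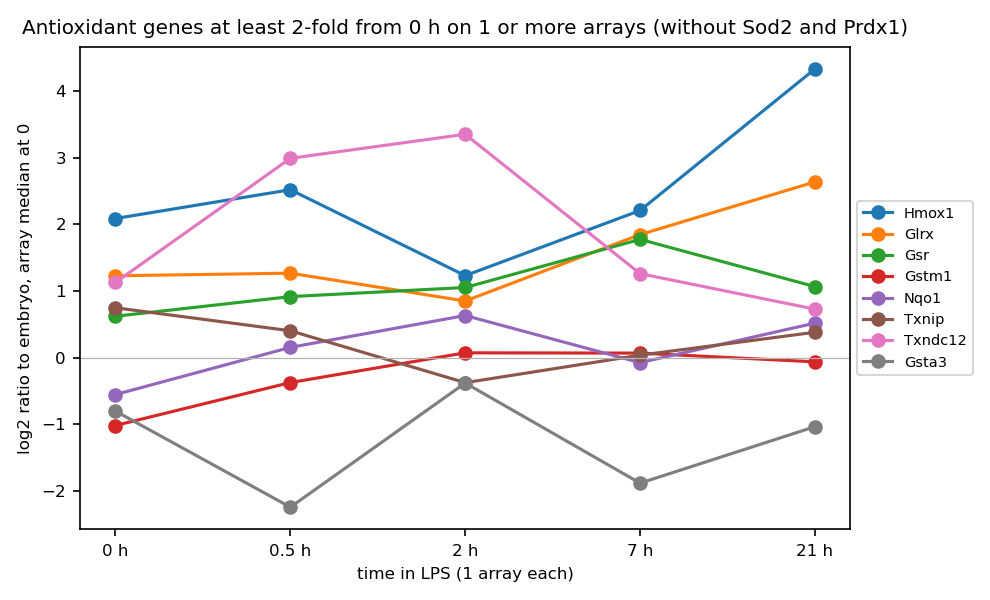
Level (log2 ratio to embryo, array median at 0) at 0, 0.5, 2, 7 and 21 h in LPS (1 array each) of the genes at least 2-fold from 0 h at 1 or more times, apart from Sod2 and Prdx1. Hmox1 and Glrx end highest, at 4.33 and 2.64, Txndc12 is high at 0.5 h and 2 h alone, at 2.99 and 3.35, and Txnip is lowest at 2 h.

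The comparisons with 0 h share that array. A comparison of 21 h with 7 h does not use it and was added after the data were seen. In it 2 of the 56 genes, or 3.57%, reached 2-fold upward and 0 downward, beside 1.82% and 1.12% of all genes. Hmox1 was 2.12 higher on the log2 scale and Prdx1 1.27 (SD over probes 0.46). Glrx was 0.79 higher and Sod2 0.26 higher. Gsr was lower by this measure, at -0.71, and so was Gpx1, at -0.62 (SD over probes 0.12). Sod2 and Gsr thus had most or all of their difference by 7 h, and Hmox1, Prdx1 and Glrx were further from 0 h at 21 h than at 7 h.

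Other genes of the pathway, from lists of known function, were examined beside these enzymes. Of 10 genes that supply NADPH, 0 reached 2-fold upward at 7 h or 21 h, and 1 was lower at 7 h. Me2, a mitochondrial malic enzyme, was that gene, at -1.24 on a probe in a run that read 5.55 at 2 h. Me3, another gene of this list, read 5.23 at 2 h on 1 probe outside the runs, so such early values were not confined to the runs. Its changes at 7 h and 21 h were -0.72 and -0.56. Of 7 measured genes for the supply of glutathione precursors, 0 reached 2-fold at either time, with medians of 0.13 and -0.15. No gene of cystine uptake was among them, so cystine supply is not described here. Phgdh, the entry enzyme of serine synthesis, was the furthest at 7 h, at 0.79.

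Of 10 regulators of the NRF2 pathway 1 was past 2-fold upward at both late times and 0 were lower, with medians of 0.37 and 0.25. Mafk, a small MAF protein that pairs with NRF2 on DNA, was that gene, at 1.08 and 1.23 on 1 probe in a run. Of the 8 regulators with a probe outside the runs, 0 were past 2-fold at 7 h or 21 h. Park7, a protein sensitive to oxidation, had 0.39 and 0.81, Nfe2l1, a relative of NRF2, 0.78 and 0.68, and Cul3, the ligase scaffold that degrades NRF2 through KEAP1, 0.69 and 0.58. Nfe2l2, the gene of NRF2 itself, named here after its values were seen, had levels of 1.75, 2.41, 3.48, 2.17 and 1.18 on 2 probes, 1 of them in a run. It was highest at 2 h and lowest at 21 h, with changes of 1.74 (SD over probes 0.63) and -0.56 (0.18).

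Among 28 other enzymes of electrophile and redox repair, 2 were higher and 2 lower at 7 h, and 1 higher and 1 lower at 21 h. Esd, a hydrolase of S-formylglutathione, had 1.27 (SD over 2 probes 0.11) at 7 h and 2.07 (0.57) at 21 h, with 1 probe in a run. Mgst3, a membrane-bound glutathione transferase, had -0.54 (SD over 7 probes 0.61) and -1.17 (0.76), with 4 probes in runs. Mt2, a metallothionein, had 1.44 at 7 h and 0.35 at 21 h on 1 probe in a run. Sesn1, a sestrin, had -1.68 and -0.29 on 1 probe outside the runs. Its level was -5.70 at 0 h and -7.38 at 7 h, and it was the lowest of all genes on every LPS array.

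The enzymes above act on reactive species that other genes produce. Of 8 genes of the NADPH oxidase and nitric oxide synthase systems 0 reached 2-fold at 7 h and 1 was higher at 21 h, with medians of 0.23 and 0.25. Rac2, the small GTPase of the phagocyte oxidase, had 0.90 (SD over 4 probes 0.64) and 1.02 (0.79).

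Haem and iron genes bear on the substrate and the product of Hmox1. Of 9 such genes 0 reached 2-fold at 7 h, and at 21 h 1 was higher and 1 lower, with a median of 0.59. Fth1, the ferritin heavy chain that stores iron, had 0.83 at 7 h and 1.47 (SD over 4 probes 0.77) at 21 h. Tfrc, the transferrin receptor that brings iron in, had -0.85 and -2.09 on a probe in a run. Blvrb, a biliverdin reductase, had 0.25 and 0.79, and Fech, which inserts iron into haem, 0.37 and 0.87.

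Selenium is part of the active site of most glutathione peroxidases and of thioredoxin reductases. Of 15 genes of selenoprotein synthesis and other selenoproteins 1 was higher and 0 lower at 7 h, and 1 higher and 1 lower at 21 h, with medians of -0.07 and 0.13. Selenow, a small selenoprotein, had 1.10 (SD over 3 probes 0.48) and 1.24 (0.47). Selenop, a secreted selenium carrier, had -0.97 and -1.75. Gpx1, itself a selenoprotein, was on the lower side at 21 h as given above.

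Markers of other cells differed at 21 h in some lists only. Past 2-fold in either direction were 0 of 4 T and NK cell, 0 of 3 dendritic cell and 0 of 3 mast cell and basophil markers. Of 4 B cell markers 1 was past it upward. The share among all genes was 3.05% upward and 1.45% downward. Of 7 neutrophil and granule markers 1 was past 2-fold upward and 2 downward at that time, and their median level was 0.22, 0.39, 0.11, 0.21 and -0.27 in order of time, with single genes between -1.03 and 1.73. Ngp had -1.62, Mpo -1.25 and Mmp9, which macrophages make too, 1.86. The 11 erythroid markers had a median level of -1.62, -1.55, -1.28, -1.31 and -1.44, below embryo throughout, and 0 were higher and 1 lower at 21 h. Macrophage markers had a median level of 2.16, 2.31, 2.39, 2.10 and 1.91. The part of these cells in the values at 21 h was not tested.

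The bases before the start of a gene are shown for Prdx1, Sod2 and Glrx, the genes past 2-fold upward at 21 h whose RefSeq promoter held a motif searched for here. Nqo1 had no match. RefSeq promoters of GRCm38.p6 were matched by Entrez identifier for 48 of the 56 genes. Those not matched were Hmox1, Gsr, Gclc, Sod3, Gsta4, Gstt2, Txnl1 and Txnl4a. Each line holds the 250 bases before the start on the plus strand, at chr4:116685349-116685598 for Prdx1, chr17:13007589-13007838 for Sod2 and chr13:75839635-75839884 for Glrx. Capitals mark matches to AP-1 (TGANTCA), to the core of the antioxidant response element (TGACNNNGC) or to NF-kappaB, on either strand.

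Prdx1: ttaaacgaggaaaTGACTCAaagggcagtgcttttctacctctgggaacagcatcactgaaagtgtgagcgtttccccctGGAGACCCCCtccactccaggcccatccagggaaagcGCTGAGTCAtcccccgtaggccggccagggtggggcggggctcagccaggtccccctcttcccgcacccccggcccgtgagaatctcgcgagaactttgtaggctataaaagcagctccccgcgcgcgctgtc
Sod2: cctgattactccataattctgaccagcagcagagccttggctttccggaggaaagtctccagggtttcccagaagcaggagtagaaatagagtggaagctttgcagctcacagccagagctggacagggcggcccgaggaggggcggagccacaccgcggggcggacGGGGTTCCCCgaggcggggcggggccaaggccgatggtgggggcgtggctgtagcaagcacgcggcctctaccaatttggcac
Glrx: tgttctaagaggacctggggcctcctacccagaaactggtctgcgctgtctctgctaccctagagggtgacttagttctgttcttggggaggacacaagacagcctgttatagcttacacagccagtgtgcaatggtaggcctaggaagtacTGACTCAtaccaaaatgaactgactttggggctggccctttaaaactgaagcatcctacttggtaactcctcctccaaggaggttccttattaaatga

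Counted back from the start, Prdx1 has AP-1 at bases 237 to 231 and at 131 to 125, the second within a match to the antioxidant response core on the minus strand at 133 to 125, and an NF-kappaB match at 170 to 161. Sod2 has an NF-kappaB match at 83 to 74, and Glrx has AP-1 at 98 to 92. Over the set, 4 of 48 genes (8.33%) had AP-1 in the 250 bases before the start beside 7.82% of all RefSeq genes over the same length, 7 (14.6%) had the antioxidant response core beside 11.5%, and 4 (8.33%) had NF-kappaB beside 8.23%. The shares are near those of all genes. A match describes letters only, and the arrays measured no binding.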

How the data were processed

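RNA of bone marrow macrophages and of whole embryo was measured on 5 arrays of 2 colours, with 1 array per time. The authors deposited a log ratio per probe, read here as log10, since base and direction are inferred from the values and from marker genes; the sources used here do not give the authors' normalization. Per the labels, cDNA was labelled by the indirect aminoallyl method.

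The annotation of the platform, from 2008, gave 1 symbol for 14759 of 19828 probes, several for 170 and no entry for 4899; 14628 were matched by Entrez identifier to the gene table of GRCm38.p6. Values were multiplied by 3.32, giving log2, centred on the array median of the 18296 probes with a value everywhere, and averaged over the probes of a gene. The 0 h value was subtracted. Counts take genes at or past 2-fold, which is a rule of size and no test. The number of arrays limits the precision. Array by array, 19344 to 19670 probes had a value, and Pearson correlations between arrays across probes, which are not replicates, ran from 0.635 to 0.882.

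Named with every array's value were genes past 2-fold at 7 h or 21 h and 24 fixed symbols, 21 of them measured, giving 22 genes. Genes past 2-fold at 0.5 h or 2 h alone were added. From each related list up to 4 genes with the largest change at 7 h or 21 h were eligible. The set and the lists were chosen with earlier results of these data known. Alternatives changed the centring, the log base, the probes, the baseline array and the fold. Scripts were tested on simulated data. Python 3.11.15, pandas 2.3.3, numpy 2.4.6 and matplotlib 3.10.9 were used.

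At 21 h the other marker lists had, past 2-fold upward and downward, 1 and 0 of 4 B cell genes, 0 and 0 of 4 T and NK cell genes, 0 and 0 of 3 dendritic cell genes, 0 and 0 of 3 mast cell and basophil genes, 2 and 0 of 10 macrophage genes and 0 and 0 of 25 embryo genes.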

Additional observations from a re-analysis of the deposited data

How the results depend on the processing

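No paired analysis was possible because each time point has 1 array. Across 98 alternatives of the counts and medians 59 left the value within 1.5 times the count or 0.1 of the median and 39 moved it. Reversal was not scored for these. Of 597 for single genes 548 left the change within the SD pooled over the probes of each gene. This SD was 0.67, 0.97, 0.51 and 0.47 at the 4 times, so the limit is wide. Part of the 548 was fixed in advance, since alternatives that only choose among or average probes cannot move a gene with 1 probe. Reversal was scored only for changes of at least 2-fold. It was found for 1, Gsta3 at 7 h, which was 0.36 from the 0.5 h array. Quantile normalization gave 0 higher and 3 lower genes at 0.5 h, 1 and 5 at 2 h, 2 lower at 7 h and 1 lower at 21 h. Leaving out the runs gave 0 higher and 0 lower at 0.5 h, 2 and 0 at 2 h, 0 lower at 7 h and 2 higher at 21 h. No centring, which shifts the median of all genes to 0.10, -0.22 and -0.12 at 2, 7 and 21 h, gave 1 higher at 7 h, 1 lower at 21 h, medians of -0.23 at 7 h and -0.023 at 21 h, and a median level of 0.079 at 0 h. Read as log2, 0 genes were past 2-fold at any time. From the 0.5 h array 2 were higher at 2 h with a median of -0.19, 1 at 7 h with a median of -0.12, and 2 were lower at 21 h. From the 7 h array, added after the data were seen, 2 were higher at 21 h. Probes with values on the pair of arrays compared gave 2 higher at 0.5 h. At 1.5-fold 6, 9, 6 and 8 were higher and 2, 3, 2 and 2 lower at the 4 times. With base 10, Sod2 at 7 h and 21 h and Prdx1 at 21 h stayed past 2-fold under every alternative. Hmox1 and Glrx at 21 h and Gsta3 at 0.5 h did so under every alternative that gave a value. These 3 genes have 1 probe each, in a run, so leaving out the runs gave no value for them. The median over probes and the pairwise probes could not change theirs. The other calls fell short of 2-fold under some alternative. Nqo1 at 21 h was 0.93 without centring and 0.42 over the pairwise probes, and at 2 h 0.91 with quantile normalization. Sod2 at 2 h was 0.95 with quantile normalization, Txnip at 2 h -0.98 without the runs, and Gstm1 at 7 h 0.87 without centring. The cause was not tested. The signal over background of the probes is not known here.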
